A study of Mus musculus with 8 samples.

Results

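The creatine kinase and adenylate energy buffer genes are 7 genes, Ckm, Ckmt2, Ckb, Ak1, Ampd1, Ampd3 and Slc6a8. The list was chosen with earlier results of these data known. The genes were picked by gene name from the annotation of the array. They carried 11 probes, each printed as 1 spot, and 10 of these probes were well above background on all 8 arrays and could be tested. Every member had at least 1 tested probe, so the 7 genes stood among 16034 named genes tested. The RNA came from the tibialis anterior, a shin muscle made mostly of fast fibres, of male C57BL/6J mice that ate a high-fat diet, started the experiment at 8 weeks of age and were 14 weeks old as sampled. The bacterium Porphyromonas gingivalis lives in the gum pocket. It was delivered over 6 weeks in 100 µL of saline through a feeding needle to the mice behind 4 of the samples. The other 4 samples are controls. A volume of 100 µL and 6 weeks of administration are listed for the controls as well, but not what the controls were given. The sources used here do not give the number of bacteria or the hour of sampling. The labels leave unsaid whether the samples are separate mice. Should some of them be repeats of 1 animal, the p-values would in part describe technical spread and not spread between mice.

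Muscle stores quick energy as phosphocreatine, and creatine kinases pass its phosphate to ADP wherever ATP is being spent, or load creatine again beside the mitochondria that make ATP. Adenylate kinase draws further ATP from a pair of ADP molecules and leaves AMP, which AMP deaminase turns into IMP so that AMP does not build up. Fibres do not make enough creatine themselves and take it up from blood through a transporter. Fast fibres, which contract in short bursts, are rich in the cytosolic enzymes of this system.

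The sample titles give the groups, but 2 sources conflict on which array belongs to which title, the scanner files and a deposited table of processed values. All values below use the groups that the scanner files carry. The columns of the table were matched to the scanner files by their values (matched correlations 0.833 to 0.88, next best at most 0.0784). By this match the table gave a different group to 4 of the 8 arrays. In order, its columns matched control 1, P. gingivalis 1, control 2, P. gingivalis 2 and so on in turn to P. gingivalis 4. Which source is right could not be settled. All arrays came from 1 slide and 1 scan. Controls filled slide row 1 and P. gingivalis samples slide row 2, so row and group cannot be told apart. The 75th percentile of the processed signal, by which each array was scaled, was 275 to 306 in controls and 238 to 255 in P. gingivalis samples. No spot was saturated. The 12 fast fibre markers, among them Myh4, Actn3 and Pvalb, were well above background on all 8 arrays.

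The creatine kinase probes are shown so that the probes for Ckm and Ckb, related genes, can be set against each other. Each is a DNA strand of 60 bases in the deposited files, written 5′ to 3′, and capitals mark the bases at which the Ckm probe and the brighter Ckb probe differ from each other.
Ckm probe: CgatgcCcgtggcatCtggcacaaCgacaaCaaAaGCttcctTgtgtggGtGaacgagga
Ckb brighter probe: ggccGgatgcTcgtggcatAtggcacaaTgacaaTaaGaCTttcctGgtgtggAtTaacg
Ckb dimmer probe: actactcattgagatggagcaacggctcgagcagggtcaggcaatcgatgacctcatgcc
Ckmt2 probe: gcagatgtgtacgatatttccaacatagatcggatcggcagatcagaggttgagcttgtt
Set against each other without gaps, the Ckm probe and the brighter Ckb probe overlapped over 56 bases and matched at 45 of them (80.4%). The 11 differences were scattered singly or in a short cluster, such as C7T and C16A, where the Ckm base comes first, then its position from the 5′ end of the Ckm probe, then the Ckb base. No other pair of member probes matched at more than 50% over at least 30 bases, including the Ckm probe with the dimmer Ckb probe. Whether the brighter Ckb probe also reads Ckm RNA was not tested.

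No member passed the adjusted threshold. By limma, a linear model with a spread estimate shared across probes, 0 of the 7 members had a Benjamini-Hochberg adjusted p under 0.05, where the share over all 31649 tested probes was 0%. Adjusted p-values of the members ran from 0.43 to 0.998. Ampd3 alone had an unadjusted p under 0.05, which is 1 of 7 where 11.2% of all tested probes (3544) had one, 4.84% higher and 6.36% lower in P. gingivalis muscle. Ampd3 was also the only member whose groups did not overlap, against 6.67% of all tested probes (3.01% higher and 3.66% lower). Both counts rest on 1 gene, Ampd3, which is too few to set the members apart from the array as a whole. By their brightest tested probe 6 members had a higher mean in P. gingivalis muscle and 1 a lower mean, with a median log2 difference of 0.10, beside 45.7% of probes higher and a median of −0.02 over all tested probes. Quantile normalization gave 5 higher members and a median of 0.05, and normexp background correction gave 5 and 0.09, as Ckmt2 turned below 0 under both. In whole muscle RNA, fewer cells of a type and less RNA per cell cannot be told apart.

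**Figure D1:**
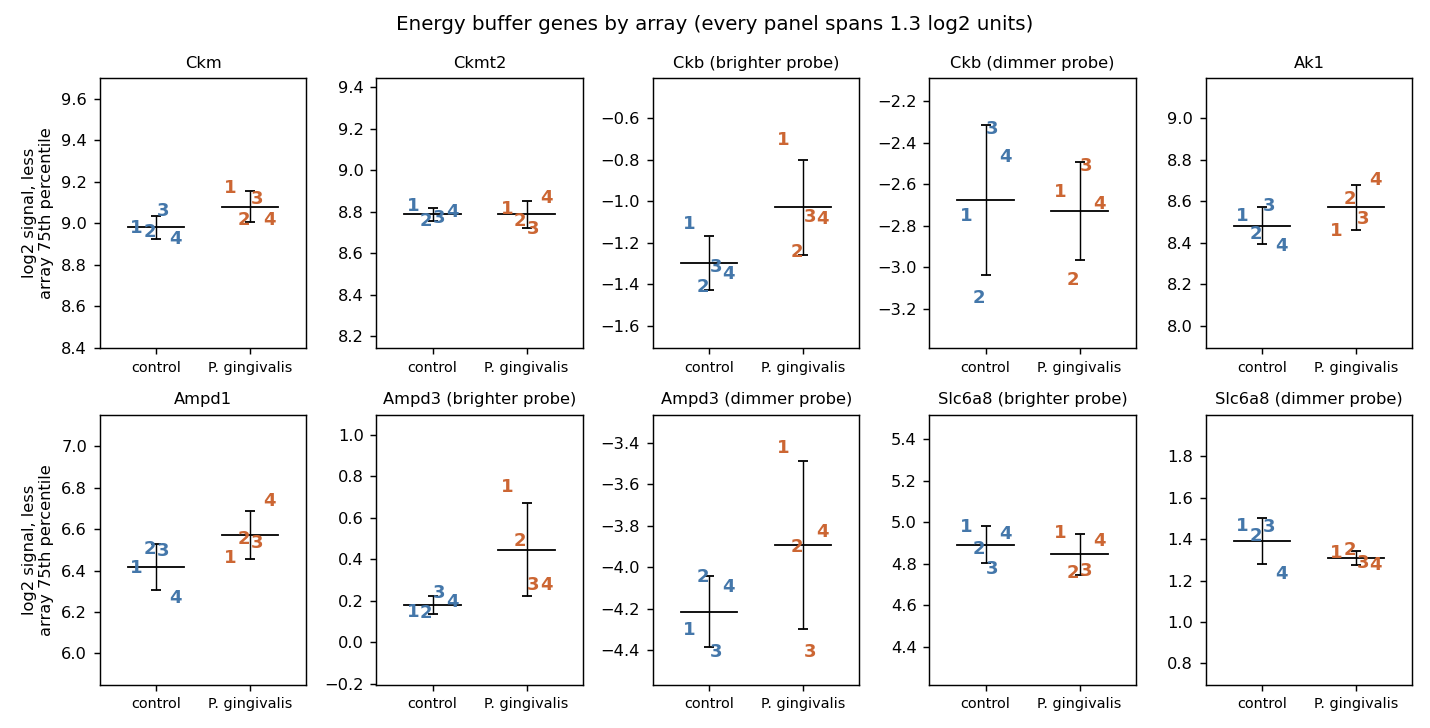
Log2 signal less the array's 75th percentile (vertical axis) for the 10 tested probes in control and P. gingivalis muscle. Digits are single arrays, named by replicate number, horizontal lines are means and bars are SD (n = 4 each), and each panel spans 1.3 log2 units. The groups overlap in every panel except that of the brighter Ampd3 probe, where the control arrays lie between 0.14 and 0.24 and the P. gingivalis arrays between 0.27 and 0.75.

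Ckm encodes the cytosolic creatine kinase of muscle, which sits at the M line beside the myosin motors. Its log2 signal, always relative to the array's 75th percentile, was 8.98, 8.96, 9.06 and 8.92 in controls 1 to 4. In P. gingivalis samples 1 to 4 it was 9.17, 9.02, 9.12 and 9.02. The groups overlapped only through control 3, which lay above P. gingivalis 2 and 4. The mean was 1.07-fold higher in P. gingivalis muscle (95% interval 0.969 to 1.19, adjusted p = 0.576 by limma), a difference within the spread between arrays. The probe reads an interval of chromosome 7 from 20002222 to 20004829 (mm9 build). This interval is longer than the probe, so the probe crosses at least 1 splice junction.

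The small Ckm difference was also the size shown by bright probes in general. Ckm ranked 69 in brightness among the tested probes, and the 100 brightest had a median log2 difference of 0.10, with 87 of 100 higher in P. gingivalis muscle. Those 100 probes held 19.5% to 20.4% of the summed signal in control arrays and 20.9% to 21.3% in P. gingivalis arrays. With quantile normalization, which imposes a common distribution of signals on every array, the median of the 100 was 0.01, with 59 of 100 higher. The Ckm difference then went from 0.10 to 0.04 (unadjusted p = 0.526 by limma). It did not shrink in this way under every alternative. Median scaling gave Ckm 0.12 (unadjusted p = 0.0933 by limma), with 87 of the 100 higher. Normexp background correction gave Ckm 0.095 (unadjusted p = 0.127 by limma), with 77 of the 100 higher. In the deposited value table with matched columns Ckm stood at 0.03. The gene whose profile over the 8 arrays was nearest to that of Ckm was Acta1, the skeletal muscle actin, with a root mean square difference of 0.03 log2 units out of 14905 genes compared. The part of this brightness pattern in the Ckm difference was not tested.

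**Figure D2:**
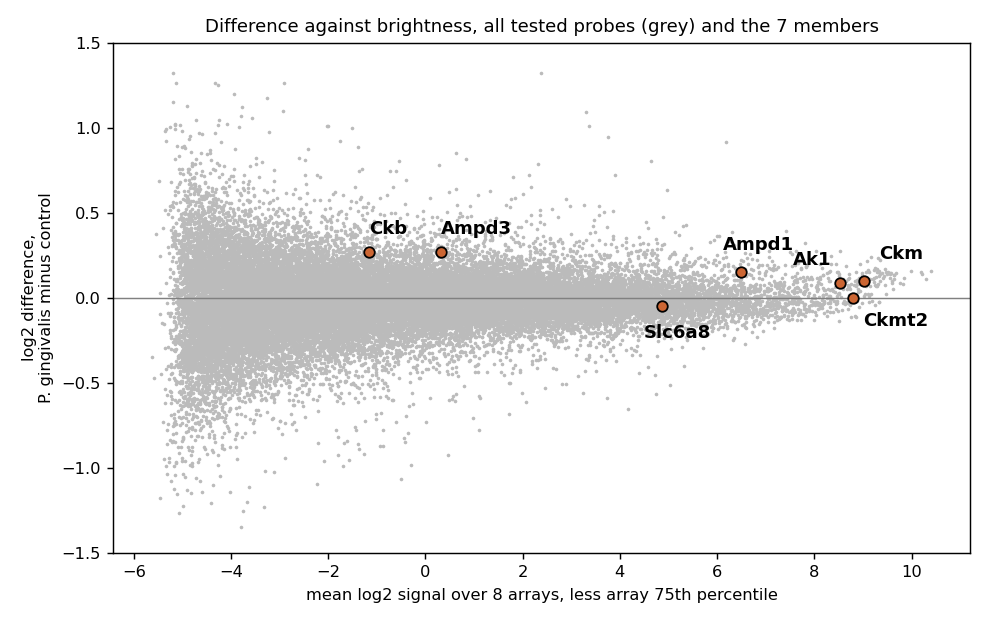
Log2 difference between groups (vertical axis, P. gingivalis minus control) against mean log2 signal over the 8 arrays (horizontal axis), for all tested probes in grey and the brightest tested probe of each member in colour. Ckm, Ckmt2 and Ak1 lie among the brightest probes, whose cloud sits above 0, while Ckb and Ampd3 stand at 0.27 within a wider cloud of dimmer probes. Of the grey points, 10 lie beyond the drawn limit of 1.5.

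Ckmt2 encodes the creatine kinase of muscle mitochondria, which forms phosphocreatine from newly made ATP in the space between the mitochondrial membranes. It stood at 8.83, 8.76, 8.77 and 8.80 in controls 1 to 4. In P. gingivalis samples 1 to 4 it stood at 8.81, 8.75, 8.72 and 8.87. The means were almost the same (log2 difference 0.00081 ± 0.06, SE, 95% interval −0.13 to 0.13, adjusted p = 0.998 by limma), and both the lowest and the highest array were P. gingivalis samples. Its spread within groups was small, with a residual SD at percentile 3.48 of all tested probes, and the interval of its difference was the narrowest of the 10 tested probes. The nearest profile was that of Map7d1, which encodes a microtubule-associated protein (root mean square difference 0.02). The probe covers chromosome 13 from 91993242 to 91995390 (mm9), also across a junction.

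Ckb encodes the cytosolic creatine kinase of brain and many non-muscle cells, which is also made at a low level in muscle. On its brighter probe the log2 signal was −1.11, −1.41, −1.32 and −1.35 in controls 1 to 4. It was −0.71, −1.25, −1.08 and −1.09 in P. gingivalis samples 1 to 4. P. gingivalis 1 was the highest of the 8 arrays, as it was for Ckm, and control 1 lay above P. gingivalis 2. The mean was 1.2-fold higher in P. gingivalis muscle (95% interval 0.992 to 1.46, adjusted p = 0.455 by limma), with a two-sided exact permutation p of 0.0571. Without P. gingivalis 1 the log2 difference was 0.16 in place of 0.27.

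The dimmer Ckb probe read −2.75, −3.15, −2.33 and −2.47 in controls 1 to 4 and −2.64, −3.06, −2.51 and −2.70 in P. gingivalis samples 1 to 4, so the P. gingivalis arrays all lay within the range of the controls. Its log2 difference was −0.05 ± 0.19 (SE, adjusted p = 0.935 by limma). This value had no stable sign, running from −0.21 without control 2 to 0.06 without control 3, and it was also above 0 without control 4 (0.02) or P. gingivalis 2 (0.06). The differences of the 2 Ckb probes were 0.32 log2 units apart, and an exact permutation test over the 8 arrays did not separate them (p = 0.229, or 0.686 adjusted over the 3 genes with a probe pair). The brighter probe, the one that shares 45 of 56 bases with the Ckm probe, covers chromosome 12 from 112908459 to 112909105 across a junction, and the dimmer one covers 112907787 to 112907846 (mm9). The gene nearest in profile to the brighter probe was Tlcd1 (root mean square difference 0.06, itself at a log2 difference of 0.30 with adjusted p = 0.442 by limma).

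Ak1 encodes the cytosolic adenylate kinase of muscle, which regenerates ATP from ADP. Its log2 signal was 8.53, 8.44, 8.58 and 8.38 in controls 1 to 4 and 8.45, 8.61, 8.51 and 8.70 in P. gingivalis samples 1 to 4. The 2 highest arrays were P. gingivalis 4 and 2 and the lowest was control 4, with the other arrays mixed. The mean was 1.06-fold higher in P. gingivalis muscle (95% interval 0.941 to 1.2, adjusted p = 0.684 by limma). The log2 difference of 0.09 was 0.04 without P. gingivalis 4 and 0.05 without control 4. The probe lies on chromosome 2 from 32490509 to 32490568 (mm9).

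Ampd1 encodes the AMP deaminase of adult muscle fibres. It stood at 6.41, 6.50, 6.50 and 6.27 in controls 1 to 4 and at 6.46, 6.55, 6.53 and 6.73 in P. gingivalis samples 1 to 4. All P. gingivalis arrays but the first lay above all controls. The mean was 1.11-fold higher in P. gingivalis muscle (95% interval 0.973 to 1.27, adjusted p = 0.522 by limma), and the log2 difference of 0.15 was 0.10 without control 4 or without P. gingivalis 4. Ampd1 and Ak1 had profiles closer to each other (root mean square difference 0.07) than to any of the other members, since both were lowest in control 4 and highest in P. gingivalis 4. Over all genes the nearest profile to Ampd1 was that of Mbd2, which encodes a protein that binds methylated DNA (0.02), and the nearest to Ak1 was that of Gstz1, an enzyme of tyrosine breakdown (0.04). The Ampd1 probe lies on chromosome 3 from 102902649 to 102902708 (mm9).

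Ampd3 encodes the AMP deaminase first known from red blood cells, whose transcript is known to increase in denervated and wasting muscle. On its brightest probe the controls were tightly grouped at 0.15, 0.14, 0.24 and 0.19. The P. gingivalis samples 1 to 4 stood at 0.75, 0.49, 0.28 and 0.27. All 4 lay above all controls, but P. gingivalis 3 and 4 only just did so, and the group SD was 0.22 against 0.04 in controls. The mean was 1.2-fold higher in P. gingivalis muscle (95% interval 1.01 to 1.43, unadjusted p = 0.039 and adjusted p = 0.43 by limma). The two-sided exact permutation p was 0.0286, the smallest that 4 against 4 arrays can give. Without P. gingivalis 1 the log2 difference was 0.17 in place of 0.27. The unadjusted limma p was then 0.0681, and it was also above 0.05 without P. gingivalis 2 (0.0817) or without any 1 of the controls (0.0532 to 0.0789).

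A second Ampd3 probe was dim but above background on every array, and its groups overlapped. It read −4.30, −4.05, −4.41 and −4.10 in controls 1 to 4 and −3.42, −3.90, −4.41 and −3.83 in P. gingivalis samples 1 to 4. Again P. gingivalis 1 was the highest array, while P. gingivalis 3 was level with the lowest control. Its log2 difference was 0.32 ± 0.19 (SE, adjusted p = 0.555 by limma). It was 0.17 without P. gingivalis 1 and 0.50 without P. gingivalis 3 (unadjusted p = 0.0101 and adjusted p = 0.404 by limma). The differences of the 2 probes were not separated by an exact permutation test (p = 0.743). The remaining Ampd3 probe, which the files tie to another transcript of the gene, failed the background test on all arrays and was not tested. The 3 probes lie on chromosome 7 from 117955705 to 117955764, from 117954980 to 117955039 and from 117938163 to 117938222 (mm9). Sema6b, a membrane semaphorin, had the profile nearest to the brightest probe (root mean square difference 0.05, log2 difference 0.31, adjusted p = 0.417 by limma).

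Slc6a8 encodes the creatine transporter of the cell membrane. On its brighter probe it stood at 4.98, 4.87, 4.77 and 4.94 in controls 1 to 4 and at 4.95, 4.75, 4.77 and 4.91 in P. gingivalis samples 1 to 4. The groups lay almost on top of each other (log2 difference −0.05 ± 0.08, SE, adjusted p = 0.838 by limma). The difference ran from −0.09 without control 3 to −0.02 without P. gingivalis 2. It was also −0.02 without control 1 or P. gingivalis 3, −0.03 without control 4 and −0.08 without P. gingivalis 1. The dimmer probe read 1.47, 1.42, 1.46 and 1.23 in controls and 1.33, 1.35, 1.28 and 1.28 in P. gingivalis samples, with a log2 difference of −0.08 ± 0.07 (SE, adjusted p = 0.672 by limma). Both probes were thus slightly lower in P. gingivalis muscle, within the spread between arrays, and only control 4 of the dimmer probe lay below the P. gingivalis samples. They lie on the X chromosome from 70927775 to 70927834 and from 70925849 to 70925908 (mm9). Ddx52, which encodes an RNA helicase, had the profile nearest to the brighter probe (0.03).

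**Figure D3:**
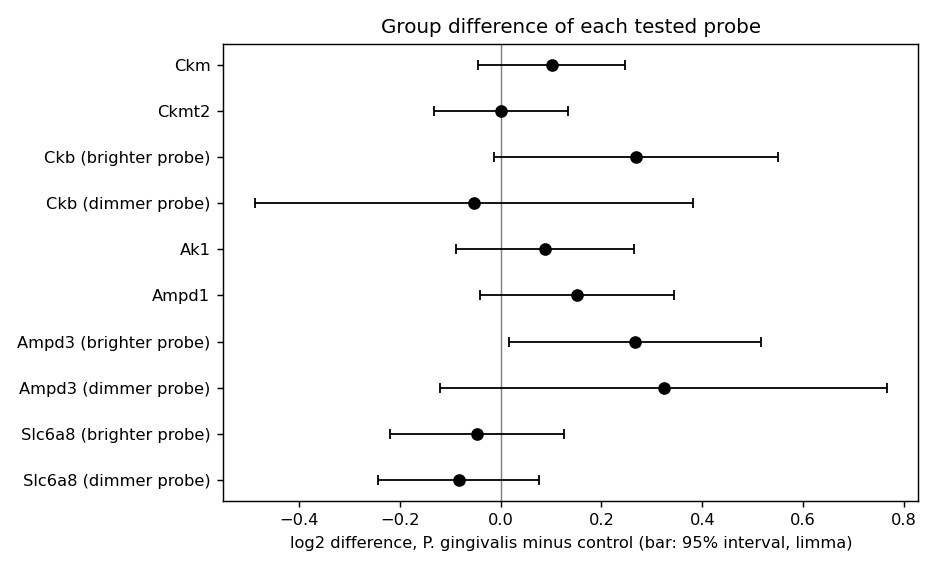
Log2 difference between P. gingivalis and control muscle (horizontal axis) for each of the 10 tested probes, with the 95% interval from limma as bars. The interval of the brighter Ampd3 probe alone lies above 0, and those of Ckmt2, Ckm and Slc6a8 are the narrow ones.

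Among the members, profiles over the 8 arrays fell nearest together for Ckmt2 and Slc6a8 (root mean square difference 0.06), and for Ak1 and Ampd1. Ckb and Ampd3, the members with differences of 0.27, were 0.14 apart, and both had P. gingivalis 1 as their highest array. The pair farthest apart was Ckb and Ak1 at 0.22. All these values rest on the same 8 arrays and are a description only.

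Of 3 genes of creatine synthesis and other creatine kinases, all tested, 3 had a higher mean, 0 passed adjustment and 0 had an unadjusted p under 0.05 (median log2 difference 0.08). Gatm and Gamt, the enzymes that make creatine, stood at 0.08 ± 0.18 and 0.04 ± 0.07 (SE). Ckmt1, the mitochondrial creatine kinase of non-muscle tissues, stood at 0.19 ± 0.09 (SE, adjusted p = 0.482 by limma). Of 14 other adenylate and nucleoside phosphate kinases 10 were tested, 5 with a higher and 5 with a lower mean, and 0 had an unadjusted p under 0.05 (median −0.01). Among those of lowest p were Nme3, a nucleoside diphosphate kinase, at −0.10 and Ak6 at −0.07. Ak5, Ak7, Ak8 and Ak9 had no array well above background.

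All 15 genes of the purine nucleotide cycle, breakdown and salvage were tested, and 0 passed adjustment (median −0.05). At an unadjusted p under 0.05 stood 1 higher and 1 lower gene, 2 of 15 beside the 11.2% of all tested probes. Nt5c2, a cytosolic nucleotidase that prefers IMP, was 1.26-fold higher in P. gingivalis muscle (log2 difference 0.34 ± 0.11, SE, adjusted p = 0.371 by limma). Nt5c3, a cytosolic nucleotidase acting on pyrimidine nucleotides, had a log2 difference of −0.24 ± 0.07 on its brightest probe (SE, adjusted p = 0.329 by limma). Its other 3 tested probes stood at −0.08, 0.02 and −0.09. Hprt, the salvage enzyme for hypoxanthine and guanine, stood at −0.08. Adsl and Adssl1, which turn IMP back into AMP in muscle, stood at −0.02 and 0.00.

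Mitochondrial carriers and pores for ATP, ADP and phosphate were all tested, 5 of 6 with a higher mean (median 0.06). Of these 6 genes 0 had an unadjusted p under 0.05. Those of lowest p were the phosphate carrier Slc25a3 at 0.17 ± 0.08 (SE, adjusted p = 0.447 by limma), Vdac2 at 0.11 and Vdac1, or porin, at 0.05.

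**Figure D4:**
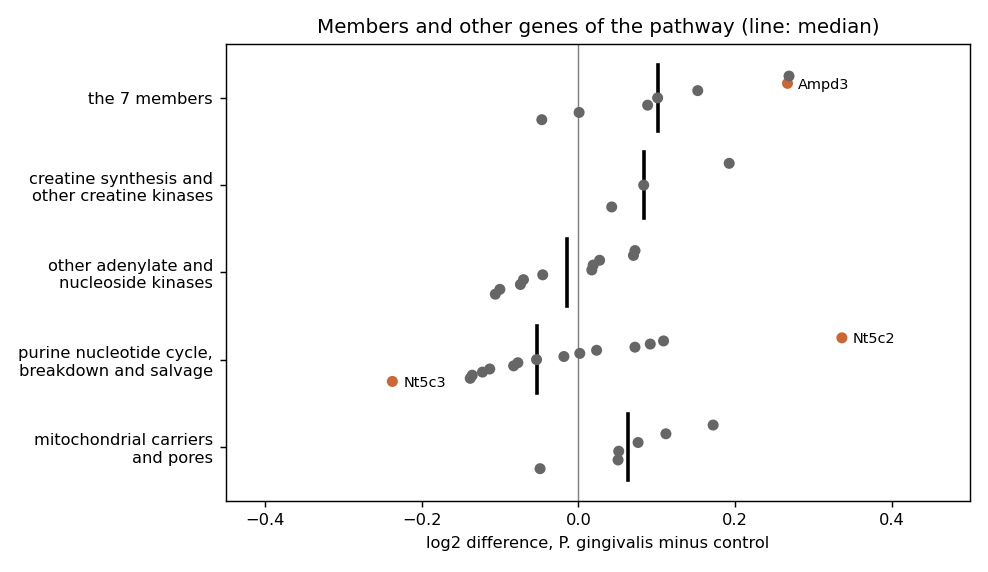
Log2 difference between P. gingivalis and control muscle (horizontal axis) for the 7 members and for the tested genes of 4 lists of related genes, each gene by its brightest tested probe. Coloured and named points have an unadjusted p under 0.05 by limma, none passes adjustment, and vertical lines are list medians, which run from −0.05 for the purine list to 0.10 for the members.

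Markers of fibre type and of other cells were measured on the same arrays, and their part in the values of the members was not tested. Fast fibre genes had a higher mean for 11 of 12 (median 0.13), and their mean level was 9.02 to 9.16 in controls and 9.17 to 9.27 in P. gingivalis samples, groups that did not overlap. These are bright probes, and the 100 brightest had a median of 0.10, which was 0.01 with quantile normalization. It was 0.12 with median scaling and 0.06 with normexp background correction. The part of this brightness pattern in the fast fibre values was not tested. Slow fibre genes were higher for 8 of 8 (median 0.16), but their level varied widely, from 1.38 to 2.36 in controls and 1.3 to 2.52 in P. gingivalis samples. Fibroblast markers were higher for 5 of 5 (median 0.36). Their level was 2.16 to 2.84 in controls and 2.89 to 3.21 in P. gingivalis samples, groups that also did not overlap. Macrophage markers were higher for 4 of 5 (median 0.18), and their levels overlapped (−0.04 to 0.44 in controls and 0.30 to 0.92 in P. gingivalis samples).

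For the other cell types in which Ckb or Ampd3 can be made, the levels of the groups overlapped too, as for slow fibre and macrophage markers. Smooth muscle markers ran from 2.32 to 2.58 in controls and 2.35 to 2.60 in P. gingivalis samples (3 of 5 higher), and Schwann cell markers from −0.54 to −0.31 and −0.67 to −0.31 (2 of 5 higher). Red blood cell markers ran from 0.84 to 1.37 and 0.96 to 1.43 (1 of 5 tested higher). Endothelial markers, 0 of 5 higher, ran from 0.45 to 0.78 and 0.27 to 0.59, and adipocyte markers, 4 of 5 higher, from −1.25 to −0.35 and −1.5 to −0.17. Markers of denervated fibres ran from −0.42 to −0.36 in controls and −0.38 to −0.19 in P. gingivalis samples (4 of 7 tested higher), with Chrng, the fetal acetylcholine receptor subunit, well above background on 0 arrays.

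With the groups of the deposited value table, the brightest probes gave Ckb a log2 difference of −0.09 and Ampd3 one of −0.14, so both changed direction. Ckm stood at −0.00072. The dimmer Ckb probe went the other way, to 0.40 (unadjusted p = 0.0163 by limma, not passing adjustment), and the dimmer Ampd3 probe stood at −0.27. Ak1 stood at 0.03, Ampd1 at 0.03 and Slc6a8 at −0.04 under those groups. By their brightest probes 0 of the 7 members had an unadjusted p under 0.05. The directions given for the brightest probes of Ckm, Ckb and Ampd3 therefore hold for the groups of the scanner files and not for those of the value table. Both sources give the same group to 4 arrays, control 1 and 2 and P. gingivalis 3 and 4. On these Ckm stood at 0.10, Ckb at 0.18 (0.34 on its dimmer probe) and Ampd3 at 0.13, with 0 of 7 at an unadjusted p under 0.05.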

How the data were processed

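RNA (200 ng a sample) was labelled with Cy3 alone, according to the labels. The spot intensity data that the authors deposited were read out by Agilent Feature Extraction (11.0.1.1 per the file headers, 11.1 per the submitters' processing notes), detrended within each array, with surrogates for dim spots, but not scaled between arrays. The authors also deposited log2 values for 24764 probes, with no statement of how they were scaled or the probes chosen. Their column medians lay between 7.357 and 7.374, and 4 of the 7 members' brightest probes were in that table. Here the log2 processed intensity had the 75th percentile of the 59305 non-control spots of its array subtracted. Outlier spots (0.108% to 0.218%) were left out, none of them a member's, and probes with several spots were averaged. Of 56605 probes, the 31649 well above background on at least 4 of 8 arrays were tested with limma 3.58.1 in R 4.3.3 (no covariate, Benjamini-Hochberg over all of them). The number of arrays limits precision. Genes were named through RefSeq accessions, symbols or synonyms (assembly GRCm38.p6, names only). Each gene stands by the brightest of its tested probes. Probe coordinates are those of the files (mm9), and exon or UTR annotation was not used here. The script was tested on simulated data. Figures used matplotlib 3.10.9.

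The members, 4 lists of related genes and 10 marker lists were chosen with earlier results of these data known. Named were all members, the 3 genes of lowest p in each list of related genes, and for each member the gene nearest in profile among those above background on all 8 arrays. A gene that this rule names is not reported here. Adsl, Adssl1, Ak5, Ak7, Ak8, Ak9 and the markers named were added after their values were seen.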

Additional observations from a re-analysis of the deposited data

How the results depend on the processing

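No member passed adjustment under any of the alternatives run, where the lowest adjusted p-values by limma came with normexp background correction, 0.0602 for the dimmer Ampd3 probe, 0.0877 for Ckb and 0.091 for the brighter Ampd3 probe. Ak1, Ampd1 and Slc6a8 kept their direction under all of them. Over the whole array 14 probes passed adjustment with normexp, 2 without a filter, 2 with an intensity trend and 1 with the value table matched by column, against 0 in the main setting. Probes at an unadjusted p under 0.05 numbered 9094 of 31649 with normexp, 3928 with the trend, 3559 with quantile normalization and 3547 with median scaling, against 3544. In the value table of 24764 probes they numbered 906 under its own labels and 2869 with matched columns. With the groups of that table they numbered 1224, on the 4 arrays with the same group in both sources 2886, and without single arrays 2821 to 4019. Of the probes at an unadjusted p under 0.05, 78.5% were higher in P. gingivalis muscle with normexp and 55.5% with median scaling, against 43.2% in the main setting. Members at an unadjusted p under 0.05 numbered 3 of 7 with quantile normalization and with the trend (Ckb, Ampd1 and Ampd3 under both). They numbered 2 of 7 with median scaling and with normexp (Ckb and Ampd3 under both), and 1 of 4 with the value table matched by column (Ampd1). They numbered 0 with the value table under its own labels, the groups of that table or the 4 arrays with the same group in both sources. They numbered 0 to 1 when single arrays were left out, with 0 without control 2, 3 or 4 or without P. gingivalis 1, Ckb alone without control 1 or P. gingivalis 2, and Ampd3 alone without P. gingivalis 3 or 4. Ckmt2, whose difference was 0.00081, turned to −0.055 with normexp, −0.015 with quantile normalization and −0.037 with the matched columns, and ran from −0.026 to 0.024 when single arrays were left out. In the value table under its own labels Ckm stood at −0.0084 and the median over the 4 members found there was 0.029. With the groups of that table Ckm stood at −0.00072, which was also the median over the 7 members, Ckb at −0.091 and Ampd3 at −0.14, and the dimmer Ckb probe at 0.40 (unadjusted p = 0.0163 by limma, not passing adjustment). Ckb, Ampd3 and Slc6a8 had no brightest probe in the value table. Samples share only a number across groups, with correlations of deviations from 0.0069 to 0.0629, and only number 1 matched best with itself. With the replicate number as a block no probe passed adjustment, Ckb and Ampd3 kept 0.27 (adjusted p = 0.435 and 0.479 by limma) and 1 member had an unadjusted p under 0.05, Ckb in place of Ampd3. The cause of these changes was not tested.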
